A study of Mus musculus with 4 samples.

Results

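Serum response factor (*Srf*), its MRTF coactivators (*Mkl1* and *Mkl2*, also named *Mrtfa* and *Mrtfb*), the transgelins (*Tagln*, *Tagln2*) and the calponins (*Cnn1*, *Cnn2*, *Cnn3*) were described in sorted hair follicle stem cells (HF-SCs) of mouse back skin. These 8 genes were found by symbol among the 17044 genes with a mean above 0 in the deposited table of 24421 genes, and all 8 were present. The libraries are 2 of control mice and 2 of miR-205 inducible mice at postnatal day 44, after 2 days of doxycycline chow from day 42. In the inducible mice a tetracycline-dependent *miR-205* transgene is switched on by a *Krt14*-driven rtTA, so that induction reaches keratin 14 expressing epithelium. The labels give C57BL/6 as the strain and call the controls untreated, while the protocol has sex-matched mice of both groups, all carrying a *K14-H2BGFP* allele, on doxycycline. The transgenic line was made in FVB mice, and live HF-SCs were sorted by surface proteins and H2BGFP.

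SRF is a transcription factor that binds CArG boxes in promoters. MRTFs are held in the cytoplasm by monomeric actin, and when actin polymerizes they enter the nucleus and activate SRF at genes of the cytoskeleton. A separate set of coactivators, the ternary complex factors (TCFs), leads SRF to immediate early genes. Transgelins and calponins share a calponin homology domain and bind actin filaments. *Tagln* and *Cnn1* are classic genes of differentiated smooth muscle and textbook SRF targets, whereas *Tagln2*, *Cnn2* and *Cnn3* are expressed more widely.

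The table names no single library. It gives the authors' mean normalized count over the 4 libraries beside their comparison of induced with control, whose fold changes and p-values are not used here, so no statement is made on how any gene changed with induction. Each mean is the sum of 4 whole counts, each divided by the size factor of its library, over 4. Because the means carry 15 digits, the counts behind them could be recovered for 16037 genes. The 4 libraries are named A to D from the deepest to the shallowest, and they were not assigned to samples or groups. Their size factors were 1.24, 1.18, 0.966 and 0.716, a 1.73-fold range of depth. The recovered counts summed to between 3586514 and 6364635 reads per library. Recovered genes hold 37.9% of the summed mean. Many genes with means of 1000 to 10000 had no single solution, and the more abundant ones were not tried. No pair of libraries stood apart, with a root mean square log2 difference of 0.31 to 0.39 over 6047 genes.

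Promoter sequences of *Srf* and *Cnn2* are shown because they hold matches to the CArG box. A match is a description, and no binding of SRF was measured. In RefSeq promoters of build GRCm38.p6, which span 250 bases before to 50 after each annotated start, 2 of the 7 members with an entry held a CArG box, namely *Srf* and *Cnn2*. The box was searched in its strict 10-base form, which reads the same way on both strands. Of all 27025 genes with a promoter, 1.81% held one. *Srf*, on the minus strand of chromosome 17, held a first box at chr17:46556235-46556244, 82 to 73 bases before an annotated start at 46556162, and a second at chr17:46556215-46556224, 62 to 53 bases before that start. The annotated *Srf* gene extends further upstream, to 46558267, so both boxes lie inside its span. *Cnn2*, on the plus strand of chromosome 10, held 1 at chr10:79988544-79988553, 56 to 47 bases before its start. No strict box was found in these windows of *Mkl1*, *Mkl2*, *Tagln2*, *Cnn1* or *Cnn3*, and *Tagln* had no entry. The boxes are in capitals, 5′ to 3′ on the strand of the gene.
*Srf* first box: ctggggctcgCCATATAAGGagcggcctcg
*Srf* second box: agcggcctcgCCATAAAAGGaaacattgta
*Cnn2* box: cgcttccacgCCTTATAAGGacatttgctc

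The induced miRNA, miR-205-5p, is encoded at GRCm38.p6 chr1:193507503-193507524 on the minus strand, and its seed, bases 2 to 8, is in capitals.
miR-205-5p: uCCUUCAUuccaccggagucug
A match to the whole seed, ATGAAGG, was present in the 3′UTR of 1 member, *Cnn1*, in GENCODE vM1 models, where 11.8% of 14417 genes with a 3′UTR held one. It lies in the last exon, exon 7 of 7, at NCBIM37 chr9:21913840-21913846 on the plus strand and is followed by an A. *Tagln*, at NCBIM37 chr9:45738148-45738153 in exon 5 of 5 on the minus strand, and *Cnn2*, at NCBIM37 chr10:79457944-79457949 in exon 7 of 7 on the plus strand, held the 6-base match TGAAGG to bases 2 to 7. Such a match, including those within longer ones, was found in 36.6% of genes. The match of *Tagln* is followed by an A. That of *Cnn2* is not followed by an A and is not in the shortest annotated 3′UTR of the gene. None was found in the 3′UTRs of *Srf*, *Mkl1*, *Mkl2*, *Tagln2* and *Cnn3*. The matches are shown with their surroundings, in capitals.
*Cnn1* site: agttcctacatgATGAAGGaccaactccat
*Tagln* site: tcgaatgtccttTGAAGGagacccagccc
*Cnn2* site: tcctctggtgttTGAAGGcttccctgccc

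*Srf* was abundant in HF-SCs. Its authors' mean normalized count was 3574, at percentile 96.4 of the 17044 expressed genes, and it lies at GRCm38.p6 chr17:46546838-46558267. *Mkl1* (chr15:81012281-81190736) had a mean of 1671, at percentile 91.6, and *Mkl2* (chr16:13256056-13417529) a mean of 709, at percentile 80.2. Levels were set side by side per kilobase (kb) of the longest annotated transcript. On that scale *Srf* had 873 normalized counts per kb, *Mkl1* 380 and *Mkl2* 85.5. *Srf* was therefore 2.30-fold above *Mkl1*, and *Mkl1* was 4.45-fold above *Mkl2*. Both ratios moved with the length used. Per kb of coding length the first was 4.09-fold and the second 2.67-fold, and with the shortest protein-coding transcript they were 1.24 and 0.615. *Myocd*, the smooth and cardiac muscle relative of the MRTFs, was listed at 0, as was *Abra*, which encodes the muscle MRTF activator STARS.

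Of the summed level of *Tagln* and *Tagln2*, almost all was *Tagln2*, the more widely expressed gene. *Tagln2* (chr1:172500246-172507375) had the highest mean of the 8 genes, 6449, at percentile 98.2, and 4066 normalized counts per kb. *Tagln* (chr9:45929628-45936058) had a mean of 84.1, at percentile 45.6, and 53.0 per kb. The longest transcripts of both have 1586 bases, so the 76.7-fold ratio of *Tagln2* to *Tagln* is the same in the means and per kb, and *Tagln* made up 1.29% of the pair.

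Among the calponins *Cnn2* led. *Cnn2* (chr10:79988600-79995400) had a mean of 816, at percentile 82.6, *Cnn3* (chr3:121426541-121458205) a mean of 262, at percentile 63.2, and *Cnn1* (chr9:22099221-22109221) a mean of 99.8, at percentile 47.9. Per kb, *Cnn2* had 332 normalized counts, *Cnn3* 131 and *Cnn1* 42.1, so that *Cnn2* took 65.7% of the family, *Cnn3* 26.0% and *Cnn1* 8.34%. The smooth muscle forms of both families, *Tagln* and *Cnn1*, were the lowest of the 8 genes and differed from each other by 1.26-fold per kb. The order per kb was *Tagln2*, *Srf*, *Mkl1*, *Cnn2*, *Cnn3*, *Mkl2*, *Tagln*, *Cnn1*, and with coding length *Mkl1* and *Cnn2* changed places.

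**Figure D1:**
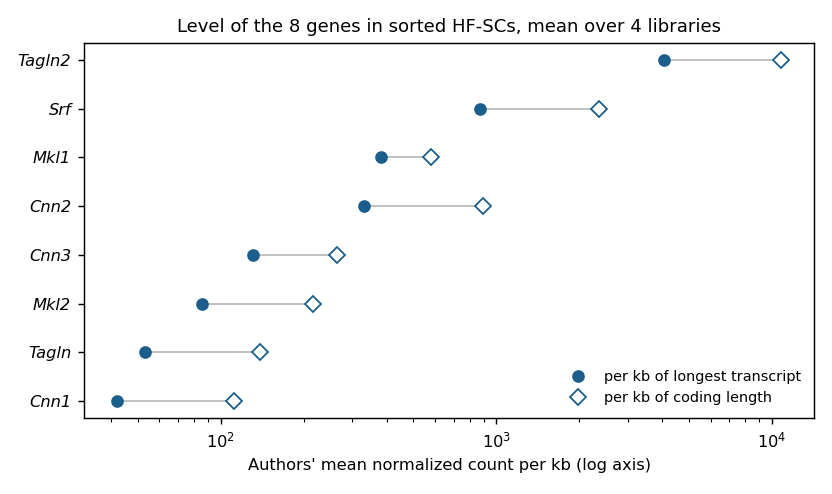
Authors' mean normalized count per kb of transcript for the 8 genes on a log axis, with filled points for the longest transcript and open diamonds for the coding length. *Tagln2* stands highest at 4066 per kb and *Tagln* and *Cnn1* lowest, at 53.0 and 42.1.

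Counts per library were recovered for 6 of the 8 genes. For *Mkl2*, *Tagln*, *Cnn1*, *Cnn2* and *Cnn3* a single set of 4 whole counts gives the printed mean. For *Mkl1* the set is single when each library is required to lie between 0.5 and 2 times the mean, a range that held 99.5% of genes with means of 500 to 1000. For *Srf* 2 sets lie in that range and for *Tagln2* 24, so no count per library is given for them. Values below are normalized counts, and intervals are exact 95% Poisson intervals that cover counting error only.

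*Mkl1* had 2191, 1710, 1624 and 1276 reads in libraries A to D, or 1772, 1451, 1681 and 1781 normalized counts. Library B was the lowest and its interval, 1383 to 1521, lay below those of the other three. *Mkl2* had 801, 877, 785 and 454 reads, or 648, 744, 812 and 634 normalized counts. Here B and C were the higher libraries and A and D the lower, and the intervals of the lower pair, 604 to 694 and 577 to 695, fell just short of the 696 where that of B began. The ratio of *Mkl1* to *Mkl2* normalized counts was accordingly 2.74 in A and 2.81 in D, against 1.95 in B and 2.07 in C. The highest over the lowest library was 1.23-fold for *Mkl1* and 1.28-fold for *Mkl2*, where the median of the 500 genes nearest in mean was 1.23-fold for both.

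*Tagln* had 104, 76, 95 and 64 reads, or 84.1, 64.5, 98.3 and 89.3 normalized counts. The intervals of all 4 libraries overlapped, from 50.8 to 80.7 in B up to 79.5 to 120.2 in C, and B was the lowest library and C the highest. *Cnn1*, the other smooth muscle form, had 181, 81, 82 and 71 reads, or 146, 68.7, 84.9 and 99.1 normalized counts. Library A stood above the other three, with an interval of 126 to 169 against a highest upper bound of 125 in D. *Cnn1* was 2.13-fold higher in A than in B, a wider range than in 91.2% of the 500 genes nearest in mean, whose median was 1.46-fold. Leaving out library A brought this ratio of *Cnn1* to 1.44-fold.

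*Cnn2* had 1100, 817, 835 and 586 reads, or 889.5, 693, 864 and 818 normalized counts. Library B was the lowest, with an interval of 646 to 742 below the other three, and the highest library exceeded it by 1.28-fold. *Cnn3* had 239, 345, 282 and 195 reads, or 193, 293, 292 and 272 normalized counts. It was lowest in A, where the interval of 170 to 219 lay below all others. *Cnn1* and *Cnn2* were highest in A, but the interval of *Cnn2* there, 838 to 944, overlapped those in C and D. The range of *Cnn3*, 1.51-fold, was wider than in 85.0% of the 500 genes nearest in mean. The ratio of *Cnn1* to *Cnn3* normalized counts was 0.757 in A and 0.235, 0.291 and 0.364 in B, C and D. *Cnn2* exceeded *Cnn3* in every library, by 4.60-fold in A and by 2.37-fold to 3.01-fold in the other three.

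**Figure D2:**
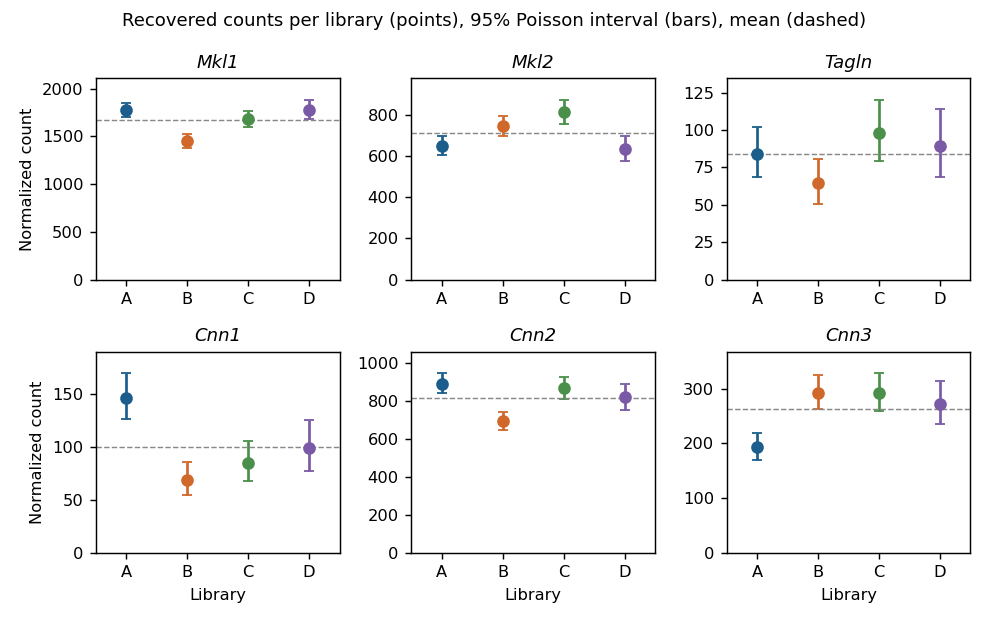
Normalized counts of the 6 genes with recovered counts (vertical axes, each from 0) in libraries A to D, with exact 95% Poisson intervals as bars and the authors' mean dashed. *Cnn1* is highest in A at 146 and *Cnn3* lowest there at 193.

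Across the 6 genes, library B was the lowest for 4, *Mkl1*, *Tagln*, *Cnn1* and *Cnn2*. Over 9062 genes with a mean between 50 and 2000, B was the lowest for 22.1%. With 4 libraries and 6 genes these counts are a description. The centred log2 profile of *Mkl1* was nearest to that of *Cnn2* among the 15 pairs of members, at a root mean square distance of 0.06, and *Cnn1* and *Cnn3* were farthest apart at 0.63. Among 6046 or 6047 other genes with a mean over 200, the profiles nearest to *Mkl1* were those of *Nup88* and *Ywhah*, to *Mkl2* *Camk2g* and *Polr3c*, and to *Tagln* *Lpar3* and *Krt80*. Those nearest to *Cnn1* were *Nptx1* and *Tmc7*, to *Cnn2* *Spred2* and *Them5*, and to *Cnn3* *Tex261* and *Pcyox1*. Their distances were 0.01 to 0.05, a description over 4 libraries.

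**Figure D3:**
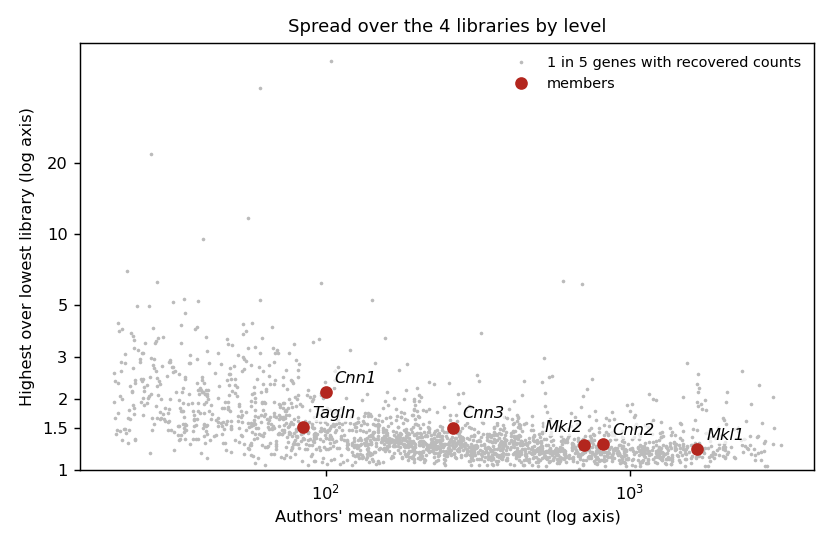
Highest over lowest library against the authors' mean, both on log axes, for the 6 genes (red) and 1 in 5 genes with recovered counts and a mean of 20 or more (grey). *Cnn1* lies high among genes of its mean at 2.13-fold, and *Mkl1*, *Mkl2* and *Cnn2* lie at 1.23-fold to 1.28-fold.

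*Tagln* and *Cnn1* are also made by smooth muscle, such as the arrector pili muscle that attaches at the bulge, and by dermal sheath cells and pericytes. The sort took DAPI-negative cells high in H2BGFP, integrin alpha-6 and CD34 and negative for Sca1, which selects for the keratin 14 reporter. Genes of myeloid cells and melanocytes were still counted in these libraries, such as *Cd74* at 2744 and *Dct* at 498. In bulk libraries fewer cells of a type and less RNA per cell cannot be told apart. All 11 HF-SC markers on the list had a mean of 10 or more, from 590.3 for *Tcf7l1* to 146090 for *Krt5*. *Cd34*, *Itga6* (integrin alpha-6) and *Krt14* correspond to the sort gate, so their levels are no independent check of cell identity. The paper used *Krt5* and *Krt14* to mark epithelial cells as a whole. The keratins *Krt15* and *Krt14* had 119883 and 90971, the collagen *Col17a1* 111705, and the bulge surface antigen *Cd34* 14575. Of 12 smooth muscle and pericyte markers, 8 had a mean of 10 or more and the median was 42.8. A mean of 10 is a low floor. *Des* at 7.34 and the endothelial gene *Kdr* at 17.3 stood at percentiles 23.4 and 29.8 of the genes above 0. Most such genes pass the floor, so these counts do not set a list apart. *Acta2*, smooth muscle actin, had a mean of 53.3, *Myh11*, smooth muscle myosin, 44.5, *Des* 7.34, *Rgs5* 5.97, *Actg2* 3.39 and *Lmod1* 1.76. The highest of the list were *Cspg4* at 5882, *Smtn* at 4199.9, *Mylk* at 208 and *Synpo2* at 125. Among 7 fibroblast and dermal sheath markers, *Col1a1*, *Col1a2*, *Col3a1* and *Fbln1* led with 5186, 4699, 3397 and 1274.

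Counts per library were available for 6 of these markers with a mean of 10 or more, and they did not share one order. Library B was the highest for 4 of them, *Acta2*, *Myh11*, *Synpo2* and *Itga8*, A for *Mylk* and C for *Pdgfrb*. *Acta2* had 43.7, 86.5, 58.0 and 25.1 normalized counts in A to D, and *Myh11* had 47.7, 65.3, 38.3 and 26.5. *Mylk*, which encodes myosin light chain kinase, had 242, 176, 206 and 207, and was highest in A and lowest in B, as *Cnn1* was. *Synpo2*, which encodes an actin-binding protein, had 55.8, 224, 139 and 81.0, and was lowest in A. *Itga8* had 21.0, 22.1, 21.7 and 14.0, and *Pdgfrb*, a pericyte and fibroblast receptor gene, had 50.9, 36.5, 58.0 and 19.5, with C highest as for *Tagln*. Of the 6 markers, 4 were lowest in D. The summed level of the 10 smooth muscle and pericyte markers with recovered counts ranged from 380 in D to 629 in B. The 4 fibroblast markers with recovered counts, *Pdgfra*, *Lum*, *Dcn* and *Fbln1*, summed to between 1996 in D and 2357 in C. They did not share one order. *Lum* and *Dcn* were lowest in D, by 2.02-fold and 1.84-fold below their highest library. *Fbln1*, the most abundant of them, was highest in D and lowest in A, by 1.24-fold, and *Pdgfra* was lowest in B. The part of such cells in the levels of *Tagln* and *Cnn1* was not tested.

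**Figure D4:**
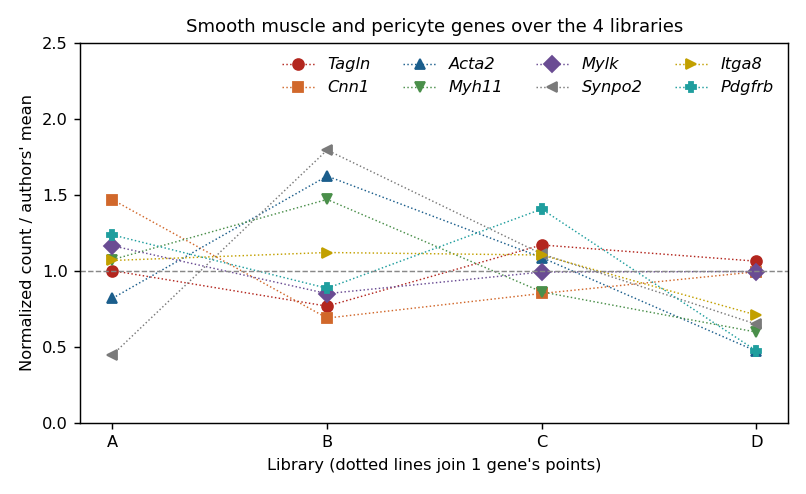
Normalized count over the authors' mean in libraries A to D for *Tagln*, *Cnn1* and the 6 smooth muscle and pericyte markers with recovered counts and a mean of 10 or more, with dotted lines joining the points of each gene only as a guide. *Cnn1* and *Mylk* are highest in A and lowest in B, whereas *Acta2*, *Myh11* and *Synpo2* are highest in B. *Itga8* is highest in B only by a narrow margin over A and C.

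The genes around SRF were described against the same floor, a mean of 10, which most genes above 0 pass. A mean of 17.3, that of *Kdr*, already stood at percentile 29.8, so the counts of list genes above the floor are a description. Of 20 regulators of the pathway, 18 had a mean of 10 or more, led by *Cfl1*, the actin-severing cofilin, at 5853, the GTPases *Rhob* and *Rhoa* at 5304 and 3191, and the kinase *Rock2* at 3886. *Scai*, which encodes an MRTF repressor, had a mean of 574, and the TCF genes *Elk4*, *Elk1* and *Elk3* had 1629, 168 and 87.3. Of 23 targets of the MRTF class, most of them cytoskeletal genes, 22 had a mean of 10 or more, with a median of 5121 over all 23. The list also holds *Thbs1*, *Cyr61* and *Ctgf*, which encode secreted matricellular proteins. The highest were *Thbs1* at 128249, *Actg1* at 99962, *Cyr61* at 70488 and *Actb* at 26289.5, and the exception was *Actg2*. All 9 immediate early targets of the TCF class were present, with a median of 8865, and the highest were *Fosb* at 89691, *Fos* at 49376, *Egr1* at 35524 and *Junb* at 16009.7. Before sorting, the skin was digested with collagenase and trypsin and the cells were incubated with antibodies. The part of this handling in the levels of both target lists was not tested. A strict CArG box was found in 5 of the 18 promoters of MRTF class targets with an entry, those of *Actg1*, *Vcl*, *Myl9*, *Fhl1* and *Fhl2*. It was found in 1 of 6 of the TCF class, that of *Egr2*, and in 0 of 14 of the regulators. The share over all 27025 genes with a promoter was 1.81%. Both target lists were chosen as SRF targets, so the boxes in them are no independent result.

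Counts per library could be recovered for 8 MRTF class targets with a mean of 10 or more, which are among the less abundant of the list. Library A was the highest for 5 of them, *Tpm2*, *Fhl1*, *Fhl2*, *Tgfb1i1* and *Itga5*, and the lowest for none, where over the 9062 genes A was the highest for 27.4% and the lowest for 29.0%. *Fhl1*, which encodes a LIM domain protein, had 1813 normalized counts in A, 682 in B, 821 in C and 1212 in D. *Fhl2*, another LIM domain gene, had 554, 303, 341.5 and 508. *Cnn1* and *Cnn2* were likewise highest in A, *Cnn2* with an interval overlapping those of C and D. *Cnn3* was lowest in A, *Acta2* and *Myl9* were highest in B, and *Cald1* was highest in D. Summed over the 9 recovered genes of the list, *Actg2* included, the level relative to the mean of the libraries was 1.32 in A, 0.813 in B, 0.802 in C and 1.07 in D. Abundant genes weigh most in this sum, above all *Fhl1* and *Tpm2*, with 1813 and 1398 in A. *Acta2*, *Myl9* and *Actg2* lay below their own means in A.

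**Figure D5:**
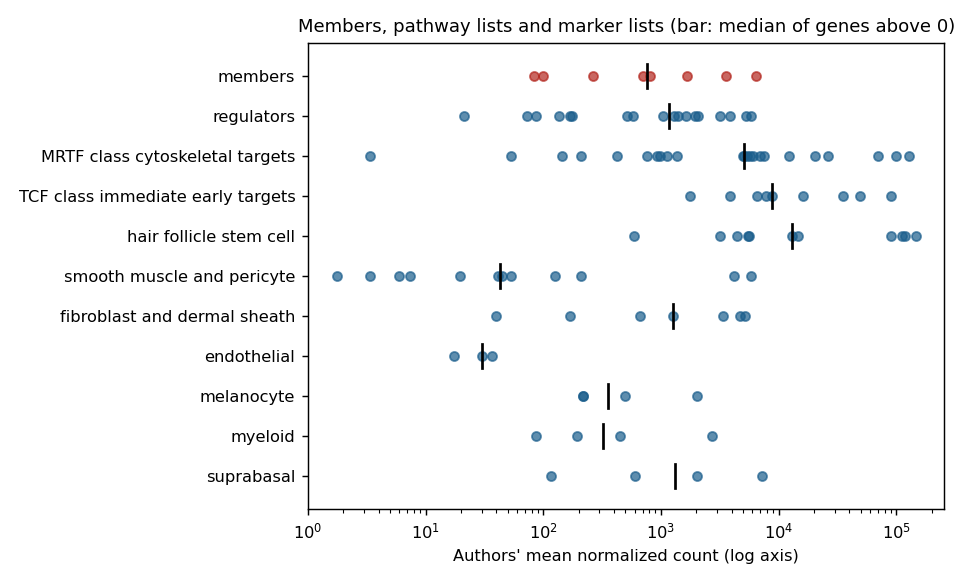
Authors' mean normalized count of each gene on a log axis, by list, with a black bar at the median of the genes above 0; *Myocd* and *Abra*, at 0, are left out. The 8 members (red) span 84.1 to 6449, and the median smooth muscle and pericyte marker stands at 42.8.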

How the data were processed

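RNA of FACS-purified HF-SCs was prepared with a directional library kit. The authors mapped paired-end reads (HISAT2 2.1.0, SAMtools 1.3.1), obtained gene counts (HTSeq) and ran DESeq2 on both groups; the last pair of versions is not given in the sources used here. The submitters' processing notes give mm10, the methods NCBI37/mm10, and the annotation is not given in the sources used here. The deposited signal is the authors' mean over 4 libraries of counts divided by size factors. The other deposited columns hold the authors' log2 fold changes, standard errors, statistics and p-values and were not used. The table has 0 columns of values per sample, so no comparison of groups and no test was made.

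Size factors came from the means shared by genes with 1 read in 1 library (138 to 232 genes each) and were sharpened by least squares. All sets of whole counts that give a printed mean were then listed. All 14591 genes with a mean under 1000 had 1 solution. Of 2294 genes between 1000 and 10000, 1446 had 1 within 0.5 to 2 times the mean, and 159 genes above 10000 were not tried. Median-of-ratios size factors recomputed from the recovered genes differed from those used by at most 0.942%. On simulated data, single solutions were correct for 2308 of 2308 genes with means of 100 to 1000 and for 408 of 410 with means of 1000 to 2000.

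The members and lists were chosen with earlier results of these data known. All 8 members are named, and of each other list the 4 with the highest means and up to 4 defining members under a mean of 10, with 2 nearest genes per member. Genes of the lists described by library or by CArG box, and *Cd34*, *Tcf7l1*, *Scai*, *Mir205* and the TCF genes, were named after their values were seen. Profiles used log2 of the normalized count plus 0.5. Lengths and 3′UTRs are from GENCODE vM1 on NCBIM37, gene places and promoters from RefSeq GRCm38.p6, and no coordinate was converted. Calculations ran in Python 3.11.15 (pandas 2.3.3, numpy 2.4.6, scipy 1.17.1), and plots were drawn with matplotlib 3.10.9.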

Additional observations from a re-analysis of the deposited data

How the results depend on the processing

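No paired analysis was possible because the table holds no value per sample and the recovered libraries carry no replicate number. Of the 8 members, 6 lay above the median gene, and 5 did so against genes with a mean over 50 or over 200. Of the 6 members with counts, 3 had a highest library over 1.5 times the lowest, also with scaling to the recovered total (CPM) or the upper quartile. Leaving out 1 library gave 1 to 3, and the low value came without library A. With the Poisson bounds of both counts, an alternative chosen after seeing the data, the number was 0. The 3 members were *Tagln*, *Cnn1* and *Cnn3*. Among the 500 genes nearest in mean, the median ratio was 1.51-fold for *Tagln*, 1.46-fold for *Cnn1* and 1.29-fold for *Cnn3*. The ratio of *Tagln*, 1.52-fold, was thus ordinary for a gene of its level. With a tolerance 10 times wider, 5 members had 1 solution instead of 6, since *Mkl1* then had 4. Of 8 ranks per kb, 6 were kept with coding length and 3 with the shortest protein-coding transcript, which for *Mkl2* is a fragment of 618 bases. A match to bases 2 to 7 of miR-205 was held by 3 members, where a match to bases 2 to 8 was held by 1. Of the 6 members, *Tagln* had the fewest reads, 64 to 104 per library, and the number of printed digits limits *Srf* and *Tagln2*.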

Other observations

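The recovered libraries were not assigned to groups, and markers of other cell types in the skin also varied among them. All 4 melanocyte genes had a mean of 10 or more, as most genes with a mean above 0 did, and their median was 359. Of these, *Dct*, *Tyrp1* and *Pmel* were highest in library C and lowest in D, by 6.11-fold, 5.10-fold and 5.79-fold, while *Mitf* was highest in A and lowest in C, by 1.28-fold. All 4 myeloid genes had a mean of 10 or more, with a median of 322. *Cd74*, *Lyz2* and *Ptprc* were highest in B and lowest in A, by 2.41-fold, 3.29-fold and 2.30-fold, and *Cd68* was highest in C and lowest in D, by 2.01-fold. Of the 4 suprabasal genes, *Krt10* had a mean of 7246 with no count per library. *Lor*, *Krt1* and *Ivl* were highest in C, by 6.32-fold, 2.06-fold and 1.94-fold over their lowest library. The 3 endothelial genes, *Pecam1*, *Cdh5* and *Kdr*, had means of 36.4, 30.2 and 17.3, and each was lowest in D. The row for *Mir205* had a mean of 8.18 normalized counts. It is not a measure of mature miR-205, which the paper quantified separately by miRNA qPCR.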
